A study of Mus musculus with 13 samples.

Results

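The genes described here are targets of the transcription factor p53 that act in cell death: Eda2r, Tnfrsf10b, Fas, Bbc3, Bax, Pmaip1, Perp, Aen, Phlda3 and Zmat3. Each was represented by the probe set that the array's annotation assigns to its symbol alone, taking the brightest where a gene has several. Such a probe set was found for 9 of the 10 genes, out of 19938 genes on the array, and all 9 were among the 16721 genes tested. The annotation used here names none for Bax, which is not analysed here. Eda2r passed the filter on dim genes through 5 of the 12 arrays compared, the 4 CKIα KO arrays that carry p53 and CKIα Het replicate 1, which was close to the limit. The other members passed on 12 of 12.

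The study measured RNA from mouse enterocytes, the lining cells of the gut, on Affymetrix arrays, after a gut-specific knockout of casein kinase Iα (CKIα, gene Csnk1a1), a kinase that marks β-catenin for degradation. The knockout was homozygous in 1 set of animals (CKIα KO) and heterozygous in their controls (CKIα Het), so the controls carry 1 knockout allele too. Both were studied with intact p53 and p21, in a p21 knockout and in a p53 knockout, on a 129/SVJ background. This gives 6 groups of 2 arrays, called biological replicates in the labels. The background label is not worded identically on all samples, though each form starts with 129. Age, sex, the Cre driver and the deleted exons are not given in the sources used here.

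p53 is a sequence-specific activator that cells stabilise under stress, and its targets divide into genes that halt the cell cycle, such as that of p21, and genes that favour death. The death targets include receptors of the tumour necrosis factor family at the cell surface, BH3-only proteins that open the mitochondrial pathway by engaging BCL-2 relatives, and proteins that act on survival signals, nucleic acids or junctions. In the gut, p53-dependent death is best known from irradiated crypts, where Bbc3 is a main mediator.

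All values are log2 intensities, and a difference of 1 is a doubling. Tests are from 1 limma fit over the 12 arrays, two-sided, with p-values adjusted by Benjamini and Hochberg over all genes tested, and genes under 0.05 after that adjustment were called. Errors are standard errors of that fit with 2 arrays per group, and intervals are its 95% intervals. The median of an array lay between 4.96 and 5.12. The epithelial markers Epcam (11.33 to 11.66 over the 13 arrays) and Vil1 (11.66 to 12.57) were bright on every array, and T cell markers were also present (Cd3e 6.25 to 8.59). Csnk1a1 lay between 10.44 and 10.80 on all 13 arrays, a signal of a whole-gene probe set that checks no genotype, and the annotation gives neither the p53 nor the p21 gene a probe set of its own. Xist, which coats and silences an X chromosome, lay between 3.15 and 3.94 on the replicate 1 arrays of the 6 groups and between 8.91 and 10.1 on their replicate 2 arrays, so each group held 1 array of each kind. The remaining array carries labels that disagree: its title says CKIα KO/p53 KO, and its genotype and source give a CKI knockout without mention of p53. It entered no comparison, and the p-values rest on the spread pooled over the 6 groups.

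Loss of CKIα divided the members. With p21 knocked out, Eda2r, Tnfrsf10b, Aen, Phlda3 and Zmat3 rose 2.77-fold to 13.3-fold, and Fas, Bbc3, Pmaip1 and Perp were not called. The same 5 genes lay above their controls with p53 and p21 present, by smaller amounts that did not pass the test. Without p53 none of the 9 was called.

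**Figure D1:**
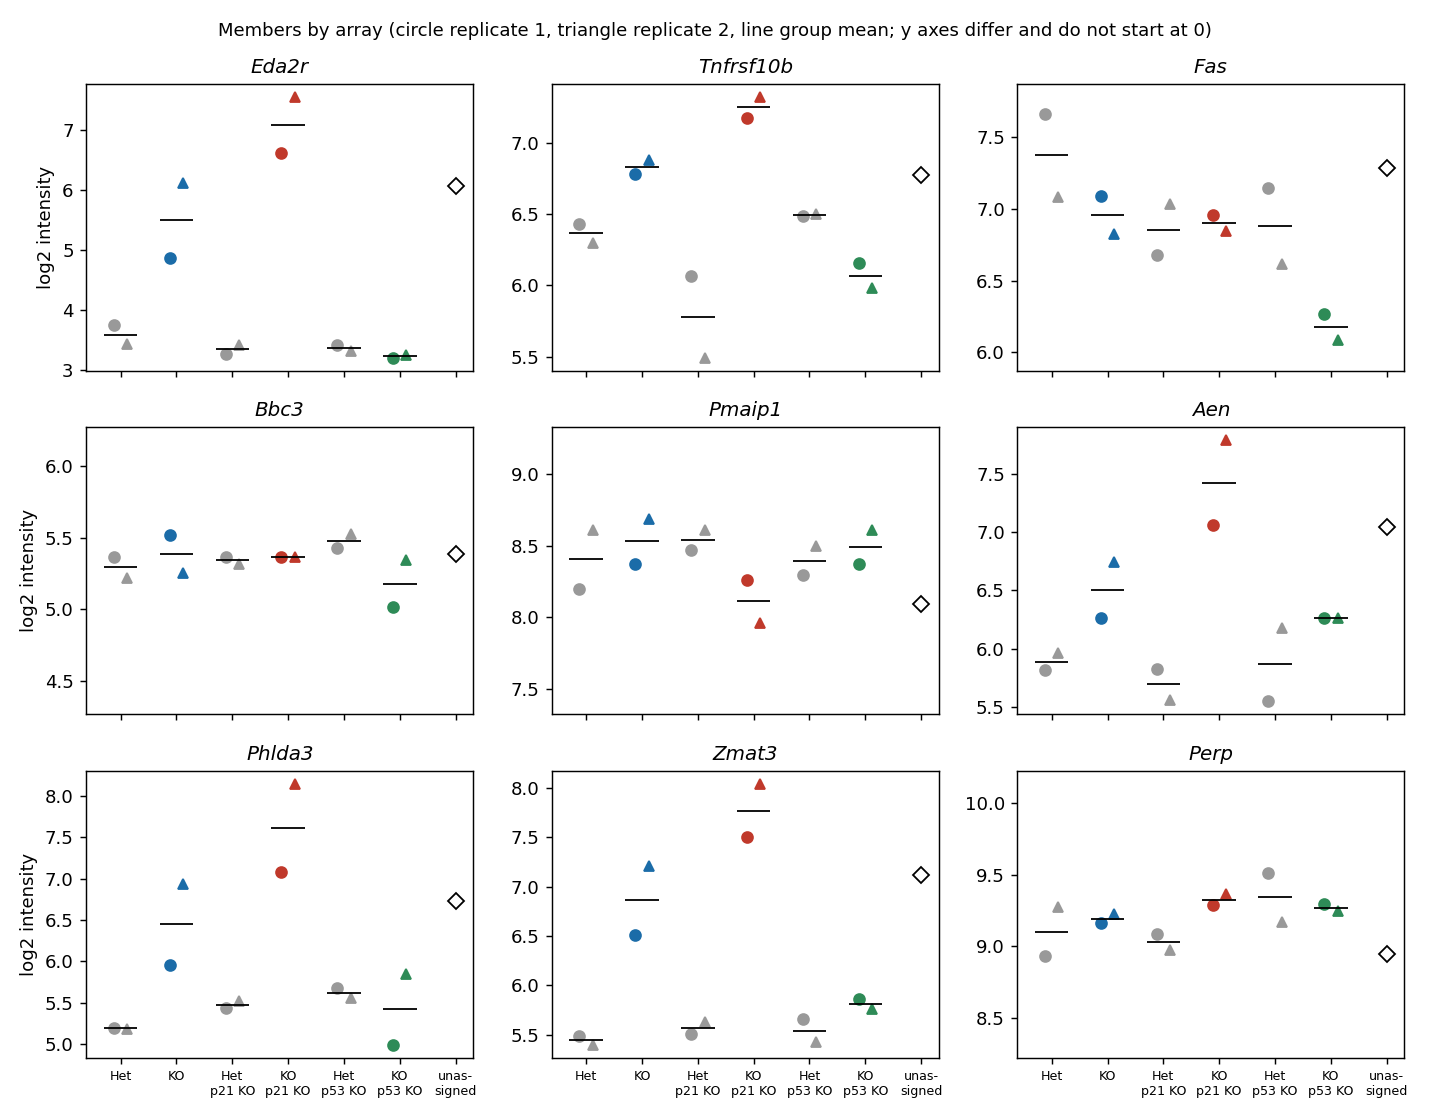
Log2 intensity of each of the 9 members (vertical axes, which differ between panels and do not start at 0) on every array of the 6 groups and on the unassigned array. Circles are replicate 1, triangles replicate 2 and lines group means; for Eda2r, Tnfrsf10b, Aen, Phlda3 and Zmat3 the 4 CKIα KO arrays that carry p53 lie above all 6 CKIα Het arrays, with Eda2r at 4.87 to 7.55.

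Among the receptors, Eda2r encodes a receptor for a splice form of ectodysplasin A. It lies on the X chromosome. Its log2 values were 3.75 and 3.44 in CKIα Het and 4.87 and 6.11 in CKIα KO. They were 3.27 and 3.42 in CKIα Het/p21 KO and 6.62 and 7.55 in CKIα KO/p21 KO. Without p53 they were 3.43 and 3.32 in CKIα Het and 3.21 and 3.25 in CKIα KO. Eda2r was therefore high on the 4 CKIα KO arrays that carry p53 and near the 25th percentile of its array everywhere else, which lay between 3.59 and 3.73. In the p21 knockout the difference was 3.74 ± 0.38 (SE, n = 2 per group), a 13.3-fold rise (limma, adjusted p = 0.00928). That difference ranked 3 of 16721 genes from the highest. Both controls lay under the 25th percentile and no detection call is used here, so the fold and the rank of Eda2r are not exact sizes, and it entered the test through the arrays where it is high.

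Tnfrsf10b encodes the mouse death receptor for the ligand TRAIL. Its log2 values were 6.43 and 6.30 in CKIα Het and 6.78 and 6.88 in CKIα KO. They were 6.06 and 5.49 in CKIα Het/p21 KO and 7.17 and 7.32 in CKIα KO/p21 KO. Without p53 they were 6.49 and 6.50 in CKIα Het and 6.15 and 5.98 in CKIα KO. The groups did not overlap in any of the 3 backgrounds, with CKIα KO higher while p53 was present and lower without it. The rise with p21 knocked out was 1.47 ± 0.18 (2.77-fold, adjusted p = 0.0154). The controls of that contrast were themselves low, with CKIα Het/p21 KO at -0.59 ± 0.18 relative to CKIα Het (adjusted p = 0.712), which did not pass.

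Fas, the receptor for Fas ligand, behaved otherwise. It had log2 values of 7.66 and 7.08 in CKIα Het, 7.09 and 6.82 in CKIα KO, 6.68 and 7.03 in CKIα Het/p21 KO and 6.96 and 6.85 in CKIα KO/p21 KO. These groups overlapped in both backgrounds. Without p53 the values were 7.15 and 6.62 in CKIα Het and 6.27 and 6.08 in CKIα KO, the lowest 2 arrays of all 13. The CKIα difference was -0.42 ± 0.24 with both genes (adjusted p = 0.665), 0.05 ± 0.24 with p21 knocked out (adjusted p = 0.939) and -0.71 ± 0.24 without p53 (adjusted p = 0.0654). The middle value was -0.03 after a further quantile normalization. In the p21 knockout the interval ran from -0.48 to 0.58, which leaves out a rise of the size seen for Tnfrsf10b.

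The BH3-only members did not follow the receptors that rose. Bbc3, which encodes PUMA, had log2 values of 5.36 and 5.22 in CKIα Het, 5.52 and 5.26 in CKIα KO, 5.37 and 5.32 in CKIα Het/p21 KO and 5.36 and 5.36 in CKIα KO/p21 KO. Without p53 it had 5.43 and 5.53 in CKIα Het and 5.01 and 5.35 in CKIα KO. All 12 arrays thus lay between 5.01 and 5.53. The value 5.36322 was identical on both CKIα KO/p21 KO arrays and on CKIα Het replicate 1, so this tie is no measure of spread. The CKIα difference was 0.09 ± 0.15 with both genes (interval -0.25 to 0.43) and 0.02 ± 0.15 with p21 knocked out (interval -0.32 to 0.36).

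Pmaip1, which encodes NOXA, had log2 values of 8.20 and 8.61 in CKIα Het and 8.37 and 8.69 in CKIα KO. They were 8.47 and 8.61 in CKIα Het/p21 KO and 8.26 and 7.96 in CKIα KO/p21 KO. Without p53 they were 8.29 and 8.50 in CKIα Het and 8.37 and 8.61 in CKIα KO. In the p21 knockout CKIα KO lay below its controls without overlap, opposite to the 5 genes that rose, by -0.43 ± 0.19 (adjusted p = 0.214), and this did not pass. The difference was 0.13 ± 0.19 with both genes (interval -0.30 to 0.55) and 0.10 ± 0.19 with p53 knocked out (interval -0.33 to 0.52).

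Perp encodes a membrane protein that takes part in p53-dependent death and in desmosomes. Its values lay between 8.93 and 9.51 on all 12 arrays. The CKIα difference was 0.09 ± 0.16 with both genes (interval -0.27 to 0.45), 0.30 ± 0.16 with p21 knocked out (interval -0.06 to 0.65) and -0.08 ± 0.16 without p53 (interval -0.43 to 0.28). None of these passed, and with p21 knocked out both CKIα KO arrays (9.29 and 9.36) lay above both controls (9.09 and 8.97).

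Aen encodes a nuclease that enhances apoptosis. It had log2 values of 5.81 and 5.96 in CKIα Het and 6.26 and 6.74 in CKIα KO. They were 5.83 and 5.56 in CKIα Het/p21 KO and 7.06 and 7.79 in CKIα KO/p21 KO. Without p53 they were 5.55 and 6.18 in CKIα Het and 6.26 and 6.26 in CKIα KO. The value 6.26471 was identical on both CKIα KO/p53 KO arrays and on CKIα KO replicate 1, so this tie is no measure of spread. Aen was the member whose CKIα KO arrays without p53 stayed above their controls by the most, 0.40 ± 0.28 (adjusted p = 0.329), although this did not pass. The rise with p21 knocked out was 1.73 ± 0.28 (3.32-fold, adjusted p = 0.0330).

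Phlda3 encodes a pleckstrin homology protein that restrains the survival kinase AKT. Its log2 values were 5.19 and 5.18 in CKIα Het and 5.96 and 6.93 in CKIα KO. They were 5.43 and 5.52 in CKIα Het/p21 KO and 7.08 and 8.15 in CKIα KO/p21 KO. Without p53 they were 5.68 and 5.56 in CKIα Het and 4.99 and 5.85 in CKIα KO, and there the groups overlapped. Phlda3 rose by 2.14 ± 0.40 with p21 knocked out (4.39-fold, adjusted p = 0.0434).

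Zmat3 encodes a zinc finger protein that binds RNA. Its log2 values were 5.49 and 5.40 in CKIα Het and 6.51 and 7.21 in CKIα KO. They were 5.50 and 5.63 in CKIα Het/p21 KO and 7.50 and 8.04 in CKIα KO/p21 KO. Without p53 they were 5.65 and 5.42 in CKIα Het and 5.87 and 5.76 in CKIα KO, with both CKIα KO arrays just above both controls. Zmat3 rose by 2.21 ± 0.24 with p21 knocked out (4.61-fold, adjusted p = 0.00928).

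The members whose windows at the transcription start hold a tandem match to the p53 half-site consensus were Aen, which rose, and Bbc3, which was not called. Their sites are shown because they set a member that moved beside one that did not. The windows of RefSeq (GRCm38.p6) run from 250 bases before to 50 after a start, and 6 of the 10 members matched, with 9 windows. The half-site consensus has 10 bases with a fixed core, and it reads the same on both strands. A tandem match was 2 adjoining half-sites with the core intact and at most 3 mismatches elsewhere, a limit set after the members' windows had been looked at. Capitals mark the 20 bases of the match, and both are given 5′ to 3′ on the plus strand.
Aen, chr7:78895932-78895961: aagccGGGCTTGTCCGGGCAAGGAGcttcc
Bbc3, chr7:16309481-16309510: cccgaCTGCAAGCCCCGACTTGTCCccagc
Each match had 3 mismatches. An exact half-site stood in both windows of Aen and in that of Bax, and in none of the windows of Bbc3, Eda2r, Fas and Phlda3. Over all 32851 windows, 8.36% held an exact half-site and 0.572% a tandem match. A match is a stretch of letters and not a measured site, and these windows leave out introns and distal sequence.

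In animals with intact p53 and p21, the question was what loss of the kinase does to these genes. Eda2r was at 1.90 ± 0.38 (interval 1.06 to 2.74, adjusted p = 0.146), Zmat3 at 1.42 ± 0.24 (interval 0.89 to 1.95, adjusted p = 0.10) and Phlda3 at 1.26 ± 0.40 (interval 0.37 to 2.15, adjusted p = 0.349). Aen was at 0.61 ± 0.28 (adjusted p = 0.551) and Tnfrsf10b at 0.46 ± 0.18 (adjusted p = 0.462). For these 5 genes both CKIα KO arrays lay above both controls, as for 22.3% of all genes tested, and for no member did both lie below, as for 16.8% of all genes. By limma 0 of 9 members were called, against 0.0239% of all genes, and 4 had an unadjusted p under 0.05, all of them higher, against 5.57% of all genes. The median difference was 0.46 over the 9 members and 0.02 over all genes. Without CKIα KO replicate 1, or without either CKIα KO/p21 KO array, 2 members were called, Eda2r (adjusted p = 0.0199 to 0.0445) and Zmat3 (adjusted p = 0.0197 to 0.0252).

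With p21 knocked out, 5 of 9 members were called higher, against 1.46% of all genes, and 0 lower, against 0.514%. Eda2r is among the 5 and entered the test through the arrays where it is high. The members were chosen with earlier results of these data known, so these counts describe the list and do not test it. Both CKIα KO/p21 KO arrays lay above both controls for 6 members, against 26.9% of all genes, and below them for 1, against 24.3%. The median difference was 1.47 over the members and -0.01 over all genes. When arrays were left out the differences stayed above 0, while the calls did not hold. Only the arrays of CKIα KO/p21 KO and CKIα Het/p21 KO enter these differences, so omitting any other array cannot move them. Omitting 1 array of these groups leaves 1 in its group. Eda2r then lay between 3.27 and 4.20 and Zmat3 between 1.93 and 2.48. Phlda3 lay between 1.60 and 2.67, Aen between 1.37 and 2.09 and Tnfrsf10b between 1.18 and 1.75. Without CKIα Het/p21 KO replicate 2 no member was called, without its replicate 1 only Eda2r and Tnfrsf10b, and without CKIα KO/p21 KO replicate 2 only Eda2r and Zmat3. Without 1 array of CKIα Het, CKIα Het/p53 KO or CKIα KO/p53 KO, Eda2r, Tnfrsf10b and Zmat3 were called. With the array of disputed label added to CKIα KO/p53 KO, Eda2r (adjusted p = 0.0549) and Phlda3 (adjusted p = 0.0637) were no longer called, at differences of 3.74 and 2.14.

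Markers of other cells moved in this contrast and in others. The 13 lymphocyte markers tested had a median difference of -1.27, with 0 called and 13 at an unadjusted p under 0.05 and lower. Their summed intensity on the linear scale ran from 4852 to 9832 in CKIα Het/p21 KO and from 1485 to 3842 in CKIα KO/p21 KO. Of 11 enteroendocrine markers 3 fell, with summed intensities of 2277 to 2300 in CKIα Het/p21 KO and 568 to 1158 in CKIα KO/p21 KO. Of 8 goblet markers 2 fell, with sums of 28048 to 30674 and 7983 to 16527. Of 10 crypt base markers 2 rose, with sums of 1894 to 3835 and 3987 to 5221. The 14 enterocyte and epithelial markers had a median of -0.23 and 0 called. With p53 knocked out, where no member was called, 7 of 11 enteroendocrine, 5 of 8 goblet and 3 of 14 enterocyte and epithelial markers fell and 5 of 10 crypt base markers rose, with medians of -1.40, -1.09, -0.45 and 1.29. Between CKIα KO/p53 KO and CKIα KO, where Eda2r was called, 6 goblet and 6 enteroendocrine markers were lower and 7 crypt base markers higher at an unadjusted p under 0.05 by limma, with 0 called in these lists. With both genes present 0 markers of these 4 lists or of lymphocytes were called, and at an unadjusted p under 0.05 by limma 3 goblet and 4 enteroendocrine markers were lower, with 2 crypt base markers higher and 2 lower. The shares of all genes at the unadjusted threshold are not given beside these marker counts, which are descriptions. Whether these shifts take part in the members' values was not tested. In RNA from a mixed sample, fewer cells of a type and less RNA per cell cannot be told apart.

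**Figure D2:**
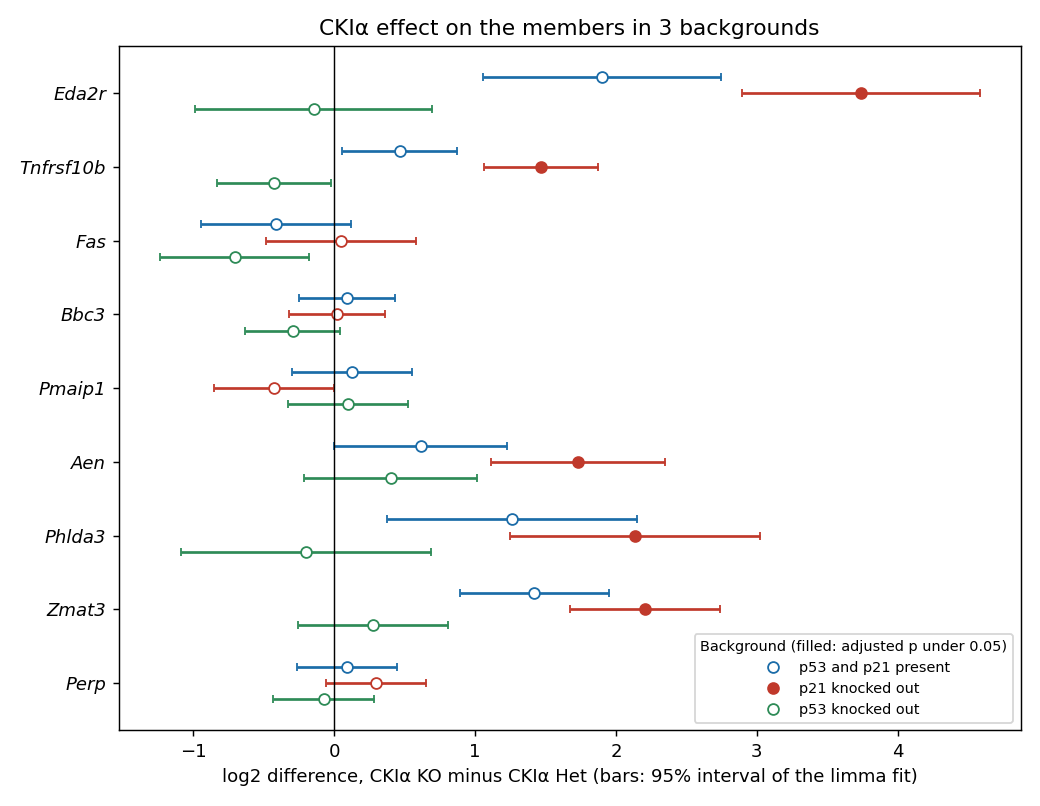
Log2 difference between CKIα KO and CKIα Het (horizontal axis) for each member in the 3 backgrounds, with the 95% interval of the limma fit and 2 arrays per group; filled points have an adjusted p under 0.05. Filled points stand only with p21 knocked out, from 1.47 for Tnfrsf10b to 3.74 for Eda2r, and with p53 knocked out the 9 points lie between -0.71 and 0.40.

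With p53 knocked out, the contrast asked whether the members still respond to loss of CKIα. The 9 differences ran from -0.71 (Fas) to 0.40 (Aen), with 3 above 0 and a median of -0.15, beside -0.06 over all genes. By limma 0 members were called, in a contrast that called 11% of all genes higher and 6.82% lower, and 2 members had an unadjusted p under 0.05, Fas and Tnfrsf10b, both lower, against 16% of all genes. Both CKIα KO/p53 KO arrays lay above both controls for 2 members, Aen and Zmat3, against 28.9% of all genes, and below them for 4, against 35.7%. Eda2r was at -0.15 ± 0.38 (interval -0.99 to 0.70). Its values lay under the 25th percentile on the arrays of both groups, so this interval does not bound the size of a response. The CKIα KO/p53 KO arrays, at 3.21 and 3.25, did not reach the 4.87 to 7.55 of the CKIα KO arrays that carry p53. Zmat3 was at 0.27 ± 0.24 (interval -0.26 to 0.80), Phlda3 at -0.20 ± 0.40 (interval -1.09 to 0.69) and Tnfrsf10b at -0.43 ± 0.18 (interval -0.83 to -0.02, adjusted p = 0.127). With the array of disputed label added to CKIα KO/p53 KO, Eda2r was at 0.80 and Phlda3 at 0.24, and neither was called.

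The difference between the contrasts was tested directly. The CKIα effect without p53 minus the effect without p21 was -3.88 ± 0.53 for Eda2r (limma, adjusted p = 0.0991), the lowest of all 16721 genes. Eda2r lay under the 25th percentile in CKIα Het/p21 KO and in both p53 knockout groups, so this size and rank are not exact. The same difference between effects was -1.89 ± 0.26 for Tnfrsf10b (limma, adjusted p = 0.0991). It was -2.34 ± 0.56 for Phlda3 (adjusted p = 0.346), -1.93 ± 0.34 for Zmat3 (adjusted p = 0.163) and -1.33 ± 0.39 for Aen (adjusted p = 0.414). None passed, against 0.012% of all genes, and 6 members had an unadjusted p under 0.05, all lower, against 4.82% of all genes. Without either CKIα KO array Eda2r was called in this test (adjusted p = 0.0236), without CKIα Het/p21 KO replicate 1 Tnfrsf10b (adjusted p = 0.0340), and without CKIα KO/p21 KO replicate 2 both (adjusted p = 0.0200 and 0.0284).

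Against the animals with both genes, the CKIα effect without p53 was smaller by 2.05 for Eda2r (-2.05 ± 0.53, adjusted p = 0.237), with Phlda3 at -1.46 ± 0.56 (adjusted p = 0.287), Zmat3 at -1.15 ± 0.34 (adjusted p = 0.248) and Tnfrsf10b at -0.89 ± 0.26 (adjusted p = 0.243). All 9 members were below 0, and 0 were called, against 0.0179% of all genes. By limma 4 had an unadjusted p under 0.05 and were lower, against 6.9% of all genes. The CKIα effect without p21 exceeded that with both genes by 1.84 ± 0.53 for Eda2r (adjusted p = 0.615), 1.12 ± 0.39 for Aen (adjusted p = 0.615), 1.00 ± 0.26 for Tnfrsf10b (adjusted p = 0.568), 0.87 ± 0.56 for Phlda3 (adjusted p = 0.706) and 0.79 ± 0.34 for Zmat3 (adjusted p = 0.615). Of all genes 0 passed this limma test, and 4 members had an unadjusted p under 0.05 and were higher, against 4.34%. The data therefore do not show that loss of p21 changed the response of any member.

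Within CKIα KO, loss of p53 lowered Eda2r 4.80-fold (-2.26 ± 0.38, adjusted p = 0.0458), the only call among the 9 members, where 0.227% of all genes were called lower. Its values without p53, 3.21 and 3.25, lay under the 25th percentile, so this fold is not an exact size either. Eda2r also entered this test through the arrays where it is high, so its call is a description and no independent support. Zmat3 was at -1.05 ± 0.24 (adjusted p = 0.0611), Tnfrsf10b at -0.76 ± 0.18 (adjusted p = 0.0650), Fas at -0.78 ± 0.24 (adjusted p = 0.103) and Phlda3 at -1.03 ± 0.40 (adjusted p = 0.166). For these 5 genes both CKIα KO/p53 KO arrays lay below both CKIα KO arrays, as for 25.8% of all genes. Aen (-0.24 ± 0.28), Bbc3 (-0.21 ± 0.15), Pmaip1 (-0.04 ± 0.19) and Perp (0.08 ± 0.16) lay nearer 0. The call of Eda2r was narrow. It was lost with array weights (adjusted p = 0.0586), without 9 of the 12 arrays in turn (adjusted p = 0.0502 to 0.198), kept without CKIα KO replicate 1 and without either CKIα KO/p21 KO array, and its difference ranged from -2.89 to -1.64 over the 12. With the array of disputed label added to CKIα KO/p53 KO it was -1.32 (adjusted p = 0.395). Without either CKIα KO/p21 KO array Zmat3 and Tnfrsf10b were called too (adjusted p = 0.0188 and 0.0358).

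In CKIα Het animals, loss of p53 changed no member by a called amount. The 9 differences ran from -0.49 (Fas) to 0.43 (Phlda3), the smallest adjusted p was 0.870, and 0 of 9 members and 0% of all genes were called by limma. At an unadjusted p under 0.05 there were 0 members and 5.63% of all genes. For Eda2r the difference was -0.22 ± 0.38 and for Zmat3 0.10 ± 0.24. Loss of p21 in CKIα Het gave differences from -0.59 (Tnfrsf10b) to 0.29 (Phlda3) with 0 called, where 0.00598% of all genes were, and by limma 1 member, Tnfrsf10b, had an unadjusted p under 0.05 and was lower, against 2.49% of all genes. Loss of p21 in CKIα KO gave 1.59 ± 0.38 for Eda2r (adjusted p = 0.202), 1.16 ± 0.40 for Phlda3, 0.92 ± 0.28 for Aen, 0.91 ± 0.24 for Zmat3 and 0.42 ± 0.18 for Tnfrsf10b, with 0 called, where 0.0359% of all genes were. By limma these 5 had an unadjusted p under 0.05 and were higher, against 7.2% of all genes. Without CKIα KO/p21 KO replicate 1, 4 of them were called, Eda2r, Phlda3, Aen and Zmat3 (adjusted p = 0.0178 to 0.0357).

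**Figure D3:**
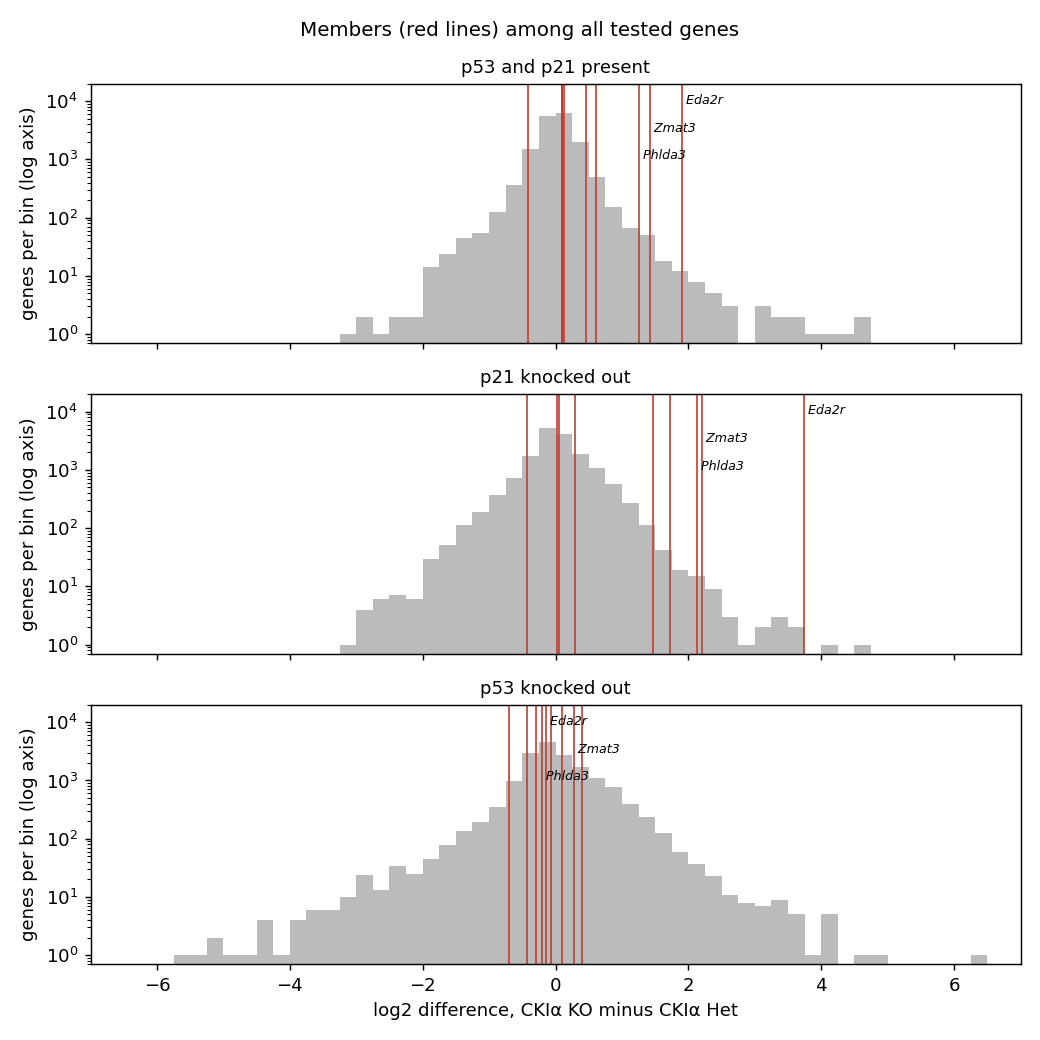
Log2 difference between CKIα KO and CKIα Het for all 16721 genes tested (grey bars, bins of 0.25, counts on a log axis), in 3 panels for the 3 backgrounds, with the 9 members as red lines. Eda2r, Zmat3 and Phlda3 stand in the right tail with both genes present and with p21 knocked out, where Eda2r ranks 3. They stand in the middle of the distribution with p53 knocked out. The rank of Eda2r is not exact, as its controls in the p21 knockout lay under the 25th percentile.

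The replicates of the CKIα KO groups differed in the members that responded. In CKIα KO, replicate 2 exceeded replicate 1 by 1.25 for Eda2r, 0.98 for Phlda3, 0.69 for Zmat3, 0.47 for Aen and 0.09 for Tnfrsf10b. In CKIα KO/p21 KO it did so by 0.93, 1.07, 0.54, 0.73 and 0.15. In both groups all 5 genes were therefore higher on the array with high Xist. In the other 4 groups the gap of replicate 2 over replicate 1 took both signs, from -0.31 to 0.15 for Eda2r, -0.12 to 0.85 for Phlda3, -0.23 to 0.13 for Zmat3, -0.27 to 0.63 for Aen and -0.57 to 0.01 for Tnfrsf10b. The 0.85 of Phlda3 was in CKIα KO/p53 KO and the 0.63 of Aen in CKIα Het/p53 KO. The replicate 2 arrays of CKIα KO and CKIα KO/p21 KO also had the lower lymphocyte sum of their group, 4027 against 6191 and 1485 against 3842. So did that of CKIα KO/p53 KO, 2036 against 5653, where the gaps were 0.04 for Eda2r, 0.85 for Phlda3, -0.10 for Zmat3, 0 for Aen and -0.17 for Tnfrsf10b. In the CKIα Het groups replicate 2 had the higher sum. The part of the Xist or the lymphocyte difference in the members' values was not tested.

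Genes outside the list that tracked it were sought by Pearson correlation with the mean of the 9 members, each centred on its own mean, over the 12 arrays. This mean follows the members that vary most, and the correlation was 0.99 for Eda2r, 0.98 for Zmat3, 0.96 for Phlda3, 0.90 for Aen and 0.89 for Tnfrsf10b. For Perp it was 0.35, for Bbc3 0.16, for Fas 0.13 and for Pmaip1 -0.50. The 6 closest genes outside the list were Psrc1, which encodes a spindle protein (0.98), Mdm4, an inhibitor of p53 (0.96), Ano3, a membrane protein of the anoctamin family (0.96), Ddit4l, a negative regulator of mTOR (0.95), Exoc4, a subunit of the exocyst (0.95), and the cyclin Ccng1 (0.95). These are descriptions over arrays that share groups and normalization.

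Psrc1 had log2 values of 5.25 and 4.94 in CKIα Het, 6.08 and 6.82 in CKIα KO, 5.08 and 5.10 in CKIα Het/p21 KO and 7.64 and 8.67 in CKIα KO/p21 KO. Without p53 it had 4.87 and 5.05 in CKIα Het and 5.06 and 4.95 in CKIα KO. As with Eda2r, the 4 CKIα KO arrays that carry p53 were the 4 highest of the 12. In the p21 knockout the CKIα difference was 3.07 for Psrc1, 2.09 for Ccng1, 1.94 for Ddit4l, 1.57 for Ano3, 1.48 for Exoc4 and 1.36 for Mdm4. The 6 genes were chosen for their likeness over these arrays, so these differences are a description, and the tests of Ccng1 and Mdm4 below belong to lists they are also in.

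**Figure D4:**
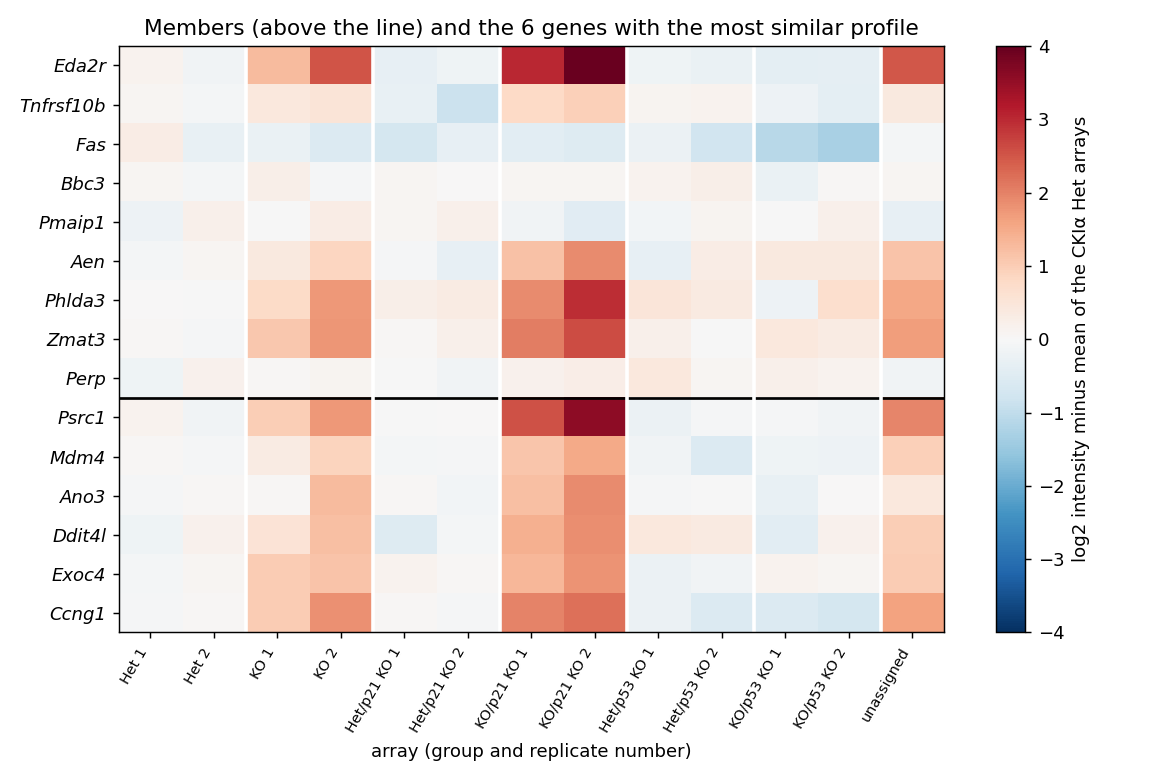
Log2 intensity of the 9 members and of the 6 genes with the most similar profile on each of the 13 arrays, as colour, relative to the mean of the 2 CKIα Het arrays. The columns of CKIα KO and CKIα KO/p21 KO lie on the red side for Eda2r, Tnfrsf10b, Aen, Phlda3, Zmat3 and the 6 lower genes. The colour is palest on CKIα KO replicate 1, where Ano3 is nearly white, and strongest for Eda2r and Psrc1 in CKIα KO/p21 KO. Fas, Bbc3, Pmaip1 and Perp stay pale on either side or turn blue.

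Other targets of p53 gave a reference. Of 12 further death targets tested, 3 rose with p21 knocked out, namely Pidd1, a death domain protein (1.46 ± 0.25, adjusted p = 0.0343), Ei24, a membrane protein (1.21 ± 0.26, adjusted p = 0.0485), and Ctsd, a lysosomal protease (0.98 ± 0.19, adjusted p = 0.0447), and 0 fell. The list's median was 0.11 there, 0.11 with both genes and 0.09 without p53, with 0 called in the last of these. Apaf1, the core of the apoptosome, was at -0.25 ± 0.16 with p21 knocked out (adjusted p = 0.382). Of 23 targets of arrest, feedback and stress, 7 rose with p21 knocked out and 0 fell, with a median of 0.29. Ccng1 (2.09 ± 0.23, adjusted p = 0.00928), Gtse1 (2.23 ± 0.28, adjusted p = 0.0180) and the polymerase gene Polk (1.13 ± 0.18, adjusted p = 0.0330) were among them. With both genes 0 of the 23 were called, 7 were higher and 1 lower at an unadjusted p under 0.05 by limma, and the median was 0.23. Without p53, 4 rose and 2 fell, with a median of 0.05, where 11% of all genes were called higher and 6.82% lower. The kinase gene Plk2 rose there (2.09 ± 0.48, adjusted p = 0.0199), and the stress genes Sesn1 (-1.76 ± 0.41, adjusted p = 0.0213) and Gadd45a (-0.91 ± 0.19, adjusted p = 0.0152) fell. Mdm2, the ligase that removes p53, was at 0.02 with both genes, 0.57 in the p21 knockout and -0.56 in the p53 knockout, with none called.

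The machinery beside the members was described through further lists. Of 15 BCL-2 relatives outside the list, 0 were called with both genes or with p21 knocked out, with medians of -0.02 and -0.08 beside 0.02 and -0.01 over all genes. Without p53, 1 of the 15 rose and 2 fell, in the contrast that called 11% of all genes higher and 6.82% lower. The BH3-only gene Bcl2l11, which encodes BIM, rose (1.06 ± 0.26, limma, adjusted p = 0.0239). The BH3-only genes Bad (-0.54 ± 0.16, adjusted p = 0.0392) and Bik (-0.53 ± 0.16, adjusted p = 0.0492) fell. Mcl1, a guardian against death, was at -0.63 ± 0.20 with p21 knocked out (adjusted p = 0.104). Of 14 caspases, apoptosome parts and inhibitors, 0 were called in any of the 3 backgrounds. At an unadjusted p under 0.05 by limma there were 1, 3 and 4 with both genes, without p21 and without p53. Of the 4 without p53, 3 were lower, where 16% of all genes were lower at that threshold. The contrasts also differ in how many of all genes they call, so these counts do not compare the backgrounds.

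Among 18 ligands and signalling genes of death receptors, 0 were called with both genes or with p21 knocked out, and 2 rose and 3 fell without p53, in the contrast that called 11% of all genes higher and 6.82% lower. The share that rose is thus near the one found over all genes. Those that fell included Tnfsf10, which encodes TRAIL, the ligand of Tnfrsf10b (-1.65 ± 0.42, adjusted p = 0.0268), and Cflar, an inhibitor of caspase 8 activation (-0.98 ± 0.22, adjusted p = 0.0174). Those that rose were Tnfrsf1b (1.13 ± 0.23, adjusted p = 0.0134) and Tnfrsf21 (0.94 ± 0.27, adjusted p = 0.0389), both of the TNF receptor family. Tnfsf10 was also at -1.43 ± 0.42 with p21 knocked out (adjusted p = 0.0891), where its receptor gene rose. Fasl, which encodes the ligand of Fas and is made by lymphocytes, had log2 values of 5.12 and 6.92 in CKIα Het/p21 KO and 5.40 and 4.56 in CKIα KO/p21 KO.

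Of 13 regulators and relatives of p53, 0 were called with both genes. In the p21 knockout 2 rose, Mdm4 (1.36 ± 0.22, adjusted p = 0.0330) and the checkpoint kinase Chek2 (1.41 ± 0.30, adjusted p = 0.0485). Without p53, 5 rose and 1 fell, where 11% of all genes were called higher and 6.82% lower. Those that rose there included the damage kinases Atr (1.33 ± 0.25, limma, adjusted p = 0.0112) and Atm (1.01 ± 0.22, adjusted p = 0.0160) and the damage mediator Trp53bp1 (0.76 ± 0.18, adjusted p = 0.0231). Mdm4 was at 0.15 ± 0.22 there (adjusted p = 0.661).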

How the data were processed

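Per the labels' protocols, the authors hybridized biotin-labelled cRNA to Affymetrix arrays and used the RMA Sketch method of Affymetrix Expression Console 1.1, followed by a normalization to median intensities. The deposited table was taken to hold log2 intensities, a base inferred from the range of its values. RMA compresses differences of dim probe sets. Of 35556 probe sets 21789 carried 1 gene symbol, 1621 several and 12146 none. Genes above the 25th percentile of the array on 2 or more of 12 arrays entered the test. limma 3.58.1 (R 4.3.3) fitted 6 group means with 6 residual degrees of freedom. It was tested on simulated data for the comparison with p21 knocked out, with 200 changed genes among 16721 in 5 runs, and called 57.6% of changes of log2 1 and 91.6% of those of log2 2. The number of arrays limits the precision.

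The members and lists were chosen with earlier results of these data known. Named are the members, the 6 genes of most similar profile, up to 3 genes with the smallest p of each list in each comparison of CKIα KO with CKIα Het, and Csnk1a1, Mdm2 and Ccng1; Xist, Fasl, Epcam, Vil1 and Cd3e were named outside that rule, as checks of the samples or as a ligand. Alternatives were no filter, quantile normalization, an intensity trend, a replicate block, array weights, probe set means, the array of disputed label added, and the omission of single arrays. Promoter windows are from RefSeq, GRCm38.p6.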

Additional observations from a re-analysis of the deposited data

Results flagged for a closer look

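The array whose title and genotype labels disagree entered no comparison. On it 5 members lay above every one of the 6 CKIα Het arrays: Eda2r had a log2 value of 6.07 (highest CKIα Het array 3.75), Zmat3 7.12 (5.65), Phlda3 6.73 (5.68), Aen 7.04 (6.18) and Tnfrsf10b 6.77 (6.50). These are the 5 members that rose with p21 knocked out. On the arrays titled CKIα KO/p53 KO replicates 1 and 2, Eda2r had 3.21 and 3.25 and Zmat3 5.87 and 5.76. The remaining members on this array were Fas at 7.28, Bbc3 at 5.38, Pmaip1 at 8.09 and Perp at 8.95. It stands here because no comparison used it, and its group was not inferred from these values.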

How the results depend on the processing

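With p21 knocked out the 5 calls held under 7 of the 8 alternatives that left out no array, and were 3 with the disputed array added to CKIα KO/p53 KO, without Eda2r and Phlda3. Adding it to CKIα KO, an alternative chosen after seeing the data, gave 2 calls with both genes and 2 for p53 loss in CKIα KO. The latter gave 0 with array weights and 0 with that array in CKIα KO/p53 KO. The labels tie the replicate numbers to no shared animal, litter or day. Deviations of same-numbered arrays from their group means correlated from -0.16 to 0.25 between groups, 5 of 15 over 0.1. In this check 12 of 12 arrays correlated best with one of their own number. The 2 arrays of a group deviate by equal and opposite amounts, so they share 1 outcome and are not separate observations. The numbers coincide with Xist. The reported fit did not take them as pairs, so any gap between arrays of low and high Xist stays in its spread. With the replicate block the members called remained 5 with p21 knocked out and 1 for p53 loss in CKIα KO, and calls over all genes in the latter went from 116 to 338. Over all genes the alternatives gave 2 to 51 calls with both genes (4 in the fit reported), 108 to 356 with p21 knocked out (330), 0 to 338 for p53 loss in CKIα KO (116), 0 to 5 (3) and 0 to 4 (2) for the effect without p53 minus that with both genes or without p21, 2 to 7 (6) for p21 loss in CKIα KO and 1 to 2 (1) in CKIα Het.

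Leaving out 1 array gave 0 to 2 members called with both genes, 0 to 5 with p21 knocked out, 0 to 2 for the difference between p53 and p21 backgrounds, 0 to 3 for p53 loss and 0 to 4 for p21 loss in CKIα KO. Signs turned only for values that had not passed. With the disputed array in CKIα KO/p53 KO these were Aen (0.046 for the effect without p53 minus that with both genes, 0.021 for p53 loss), Eda2r (0.80), Phlda3 (0.24) and Pmaip1 (-0.037) without p53, and Perp (-0.031) for p53 loss. With it in CKIα KO, Pmaip1 was at -0.020 with both genes and 0.11 for p53 loss, and after quantile normalization Fas was at -0.035 with p21 knocked out. Leaving out arrays gave Aen -0.53 to 0.10 in that difference, Bbc3 -0.037 to 0.22 with both genes and -0.0039 to 0.048 with p21 knocked out, Fas -0.13 to 0.23 with p21 knocked out, Perp -0.080 to 0.26 with both genes and -0.25 to 0.10 without p53, Phlda3 -0.63 to 0.23 without p53, and Pmaip1 -0.077 to 0.33, -0.021 to 0.22 and -0.19 to 0.12 with both genes, without p53 and for p53 loss. The cause was not tested.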
